A study of Glycine max with 6 samples.

Results

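The 14-3-3 proteins of soybean (Glycine max) were followed in leaves sprayed with a rhizobial Nod factor. Members were the soybean probe sets of which every gene paired with them in the platform annotation carries a symbol or synonym beginning with GF14 or SGF14, the names of this family. The rule found 19 probe sets among the 61170 on the array, of which 37593 are of soybean. They stand for 10 of the 6388 genes paired with soybean probe sets: GF14A with 5 probe sets, GF14C, SGF14f and SGF14G with 2 each, GF14B, GF14D, SGF14M and SGF14n with 1 each, and SGF14I and SGF14h, which share the same 4 probe sets and cannot be told apart. The RefSeq gene table of assembly Glycine_max_v4.0 lists 18 genes under these names. The other 8, SGF14e, SGF14J, SGF14K, SGF14L, SGF14O, SGF14P, SGF14Q and SGF14R, are paired with no probe set in the table used and were not analysed here.

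Plants of the cultivar OAC Bayfield were grown in pots to the V1 stage and sprayed on the first trifoliolate leaf, which was harvested 48 h later. In the LCO group the spray was 2 mL of water with 1e-07 M LCO and 0.02% Tween 20. This LCO, a lipo-chitooligosaccharide or Nod factor, is NodBj-V (C18:1, MeFuc) of Bradyrhizobium japonicum strain 532C. In the water group the spray was 2 mL of water with the same Tween 20 and no LCO. Each group had 3 replicates, on 1 array each, and the labels do not say whether a replicate was 1 plant or a pool.

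The 14-3-3 proteins are small acidic proteins that pair up and clamp onto other proteins at phosphorylated serine or threonine motifs, changing the partner's activity, location or lifetime. Known plant partners include nitrate reductase, the proton pump of the plasma membrane, sucrose phosphate synthase and transcription factors. In soybean, SGF14C, the other name of GF14C, and SGF14L have been linked to nodulation, and members of the family bind MYB176, a MYB factor that acts on chalcone synthase and so on isoflavonoid synthesis. No protein, probe or promoter sequences of these genes were at hand, so none are shown.

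The arrays were of leaf: 7 of 10 probe sets of the leaf list, which matched CAB3 of the light-harvesting complex and PSAD of photosystem I, lay above the level used as the filter, and none of them passed limma's test, with or without adjustment. All 14 probe sets of seed storage proteins lay under that level, a log2 value of 3.31 set from probe sets of other organisms on the array. No probe set matched the leghemoglobin names. Water 1 and water 2 were the closest pair of arrays, their difference having an SD of 0.198, where every other pair had 0.341 or more. GF14C and the other 14-3-3 probe sets whose groups did not overlap are therefore also given with these arrays averaged into 1.

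The question for the family was which copies differ after LCO. GF14C fell, modestly, in 1 of its 2 probe sets, and none of the other 17 tested 14-3-3 probe sets passed the threshold of 0.05 on the adjusted p. Estimates ran both ways: lower with LCO for the second GF14C probe set, SGF14M and a GF14A probe set, and higher for SGF14n and for the probe sets that SGF14I and SGF14h share. Differences in log2 ran from -0.54 to 0.70 over the 18 tested probe sets, and the median was 0.02. Over all 29286 tested soybean probe sets the median was -0.01.

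Of the 18, 1 passed as lower and 0 as higher in limma's test with Benjamini-Hochberg adjustment over all tested probe sets. The background was 1.88% called lower, 1.67% called higher and 3.55% called in either direction, so that the family's count is near the background. At an unadjusted p under 0.05 there were 4 lower and 4 higher of the 18, against a background of 13.3% lower and 12.5% higher. The groups did not overlap for 4 lower and 3 higher probe sets, against 16.3% and 15.3% of all tested (31.5% in either direction). The median size of the difference, sign aside, was 0.29 in the family and 0.20 over all tested. The family's probe sets were counted one by one, although several share a gene.

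**Figure D1:**
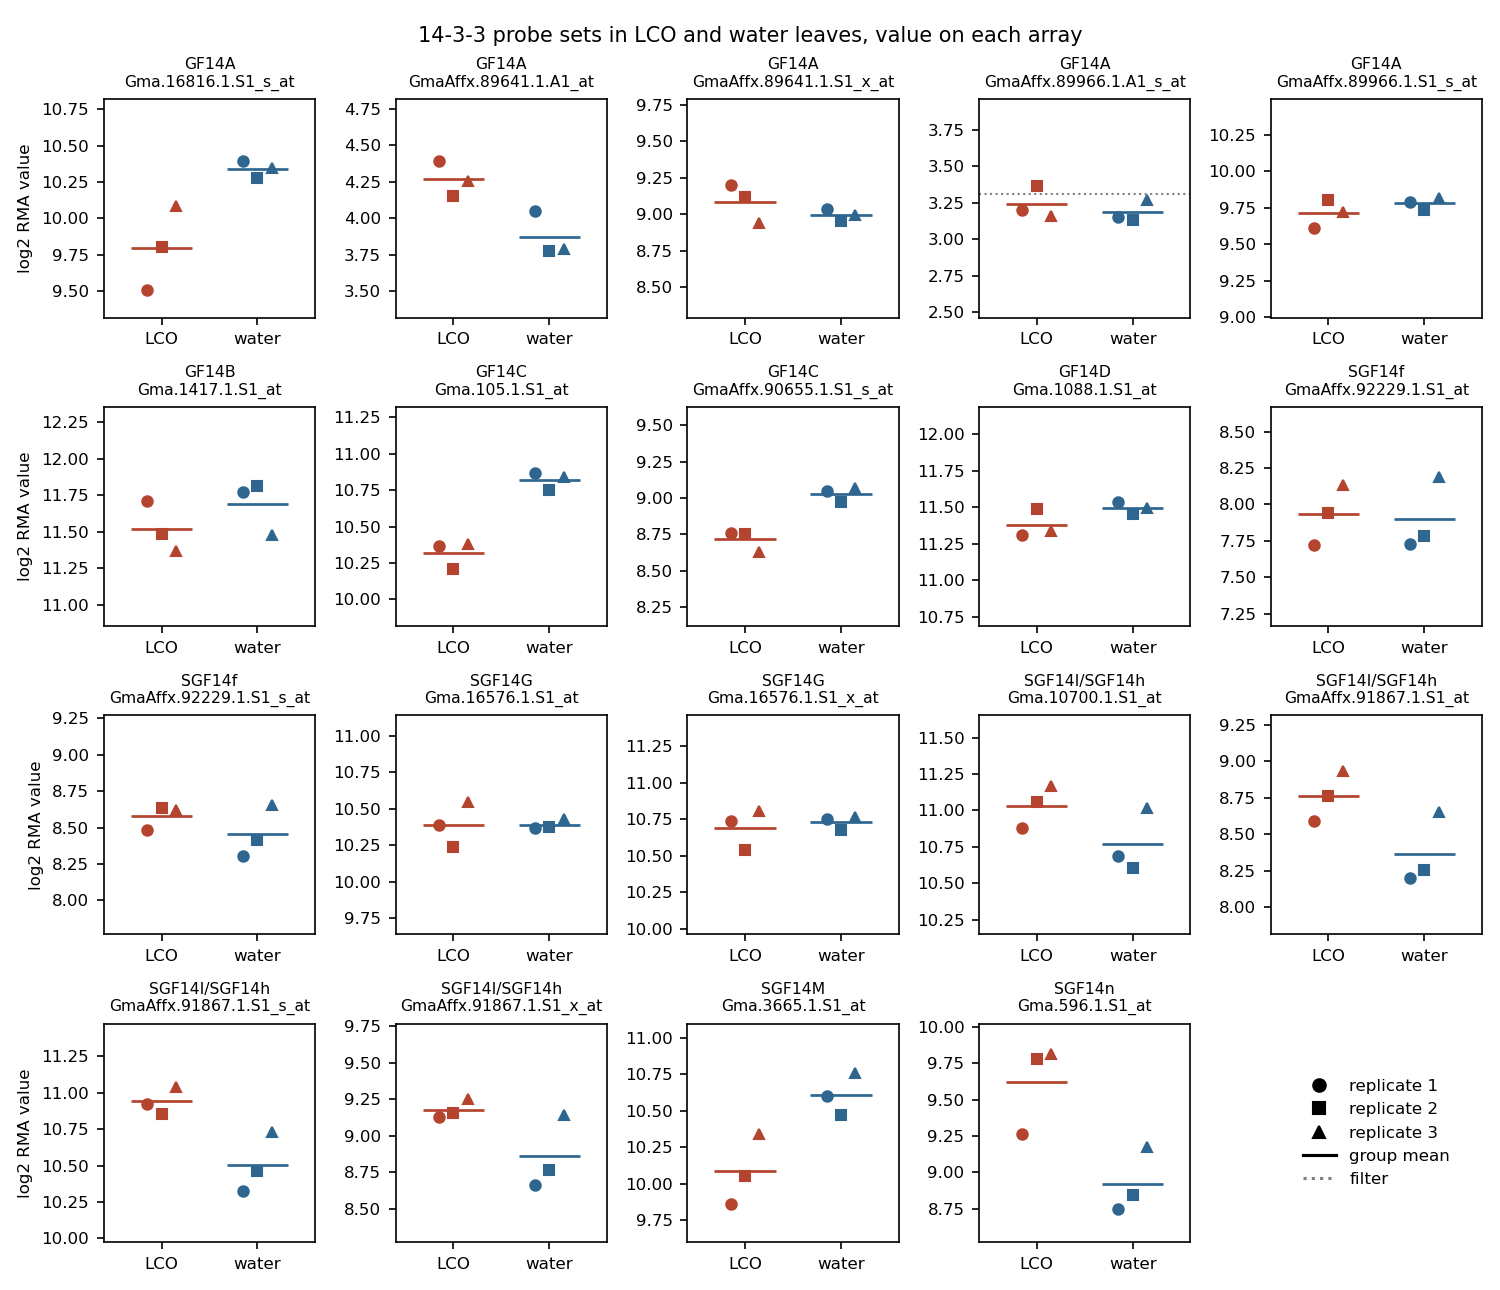
Log2 RMA value (y axis, each panel spanning the same range of log2 units around its own centre) of every 14-3-3 probe set on each of the 3 LCO and 3 water arrays; symbols mark replicates, horizontal lines the group means, and the dotted line the filter at 3.31. The LCO arrays lie below all water arrays in both GF14C panels, and above them for SGF14n.

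GF14C was the copy with the smallest p. Its probe set Gma.105.1.S1_at had log2 values of 10.36, 10.21 and 10.38 on LCO arrays 1, 2 and 3, against 10.87, 10.75 and 10.84 on water arrays 1, 2 and 3. All 3 LCO values lay below all 3 water values, with a gap wider than the spread within either group. The means were 10.32 ± 0.10 with LCO and 10.82 ± 0.06 in water (SD, n = 3 each). The log2 difference was -0.50 (SE 0.10, 95% interval -0.74 to -0.27, limma adjusted p = 0.0473), which is 0.71-fold.

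The second GF14C probe set, GmaAffx.90655.1.S1_s_at, read 8.76, 8.76 and 8.63 with LCO, against 9.04, 8.97 and 9.07 in water. The groups did not overlap here either. The log2 difference was -0.31 (SE 0.09, limma adjusted p = 0.108), so this probe set did not pass. In the manufacturer's naming the ending _s_at marks probes shared by several transcripts, and _x_at marks probes that may also bind unrelated ones. Which other copies its probes match was not tested.

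The call for GF14C stood close to the threshold. It was lost with any 1 of the 6 arrays left out, where the adjusted p ran from 0.0597 without water 3 to 0.205 without water 1. With water 1 and 2 averaged the adjusted p was 0.173, and with 1 mean over both GF14C probe sets it was 0.0615. The estimate itself moved little, from -0.54 to -0.45 with an array left out, and was -0.51 with water 1 and 2 averaged.

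SGF14M was lower in the estimate and did not pass. Its probe set read 9.86, 10.05 and 10.34 on the LCO arrays, against 10.60, 10.47 and 10.76 on the water arrays. LCO 1 lay farthest below the water arrays, and LCO 3 came closest to them, just under water 2. The log2 difference was -0.52 (SE 0.15, 95% interval -0.89 to -0.16, limma adjusted p = 0.104).

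GF14A gave different readings from its 5 probe sets. Gma.16816.1.S1_s_at read 9.51, 9.80 and 10.09 with LCO, against 10.40, 10.28 and 10.35 in water. The LCO arrays were all lower and spread over a range several times that of water, with SDs of 0.29 for LCO and 0.06 for water. Its log2 difference of -0.54 (SE 0.16) was the lowest in the family, at a limma adjusted p of 0.105.

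The other S1 probe sets of GF14A did not share that difference. GmaAffx.89966.1.S1_s_at read 9.61, 9.80 and 9.72 with LCO, against 9.79, 9.73 and 9.81 in water, a log2 difference of -0.07 (SE 0.10). GmaAffx.89641.1.S1_x_at read 9.20, 9.12 and 8.94 with LCO, against 9.04, 8.95 and 8.99 in water, a log2 difference of 0.09 (SE 0.10). In both the groups overlapped.

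Within each array, the first GF14A probe set minus GmaAffx.89966.1.S1_s_at was -0.10, 0.00 and 0.36 with LCO, against 0.60, 0.54 and 0.53 in water. The pair was chosen after its values were seen, so no test is given. The difference between the probe sets was smaller on every LCO array than on every water array. Whether probe sets paired with GF14A change unequally was thus not tested, and the values do not say which of them follows the gene. The mean over its 4 tested probe sets had a log2 difference of -0.03 (SE 0.09, limma adjusted p = 0.865). It holds a dim A1 probe set with a difference of the opposite sign, described next. Over the 3 S1 probe sets alone the mean was 9.53 ± 0.08 with LCO and 9.70 ± 0.05 in water (SD, n = 3 each), a log2 difference of -0.17 that was not tested, computed after the values were seen.

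A further pair of GF14A probe sets carries A1 in its name, the manufacturer's mark for the antisense orientation, and read near the level of other organisms' probes. GmaAffx.89641.1.A1_at read 4.39, 4.16 and 4.26 with LCO, against 4.05, 3.77 and 3.79 in water. The LCO arrays were all higher, with a log2 difference of 0.40 (SE 0.12, limma adjusted p = 0.114). GmaAffx.89966.1.A1_s_at averaged 3.24 ± 0.11 with LCO and 3.18 ± 0.07 in water (SD, n = 3 each), lay under the filter of 3.31 and was the 1 of 19 that was not tested.

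SGF14n had the highest estimate in the family. It read 9.27, 9.78 and 9.81 with LCO, against 8.75, 8.85 and 9.17 in water. All LCO arrays were higher, though LCO 1 was only just above water 3. The log2 difference was 0.70 (SE 0.19, 95% interval 0.24 to 1.15, limma adjusted p = 0.0940), which is 1.62-fold and not past the threshold.

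SGF14I and SGF14h, read by 4 shared probe sets, were higher in all 4 estimates and passed in none. GmaAffx.91867.1.S1_s_at read 10.92, 10.86 and 11.04 with LCO, against 10.33, 10.46 and 10.73 in water. This was the 1 of the 4 in which the groups did not overlap, with a log2 difference of 0.43 (SE 0.13, limma adjusted p = 0.113).

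In the remaining probe sets of SGF14I and SGF14h, water 3 reached into the LCO range. GmaAffx.91867.1.S1_at read 8.59, 8.76 and 8.93 with LCO, against 8.20, 8.25 and 8.65 in water, a log2 difference of 0.39 (SE 0.16). GmaAffx.91867.1.S1_x_at read 9.13, 9.16 and 9.25 with LCO, against 8.67, 8.77 and 9.15 in water, a log2 difference of 0.32 (SE 0.14). Gma.10700.1.S1_at read 10.88, 11.06 and 11.17 with LCO, against 10.69, 10.60 and 11.01 in water, a log2 difference of 0.26 (SE 0.14).

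The limma adjusted p of these 3 probe sets ran from 0.182 to 0.296. Over the 6 arrays the 4 probe sets correlated with each other at a Pearson r of 0.86 to 0.97 in 6 pairs, a description of probe sets that read the same pair of genes on the same arrays. Without water 3, GmaAffx.91867.1.S1_s_at passed at a limma adjusted p of 0.0497 with a log2 difference of 0.55.

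**Figure D2:**
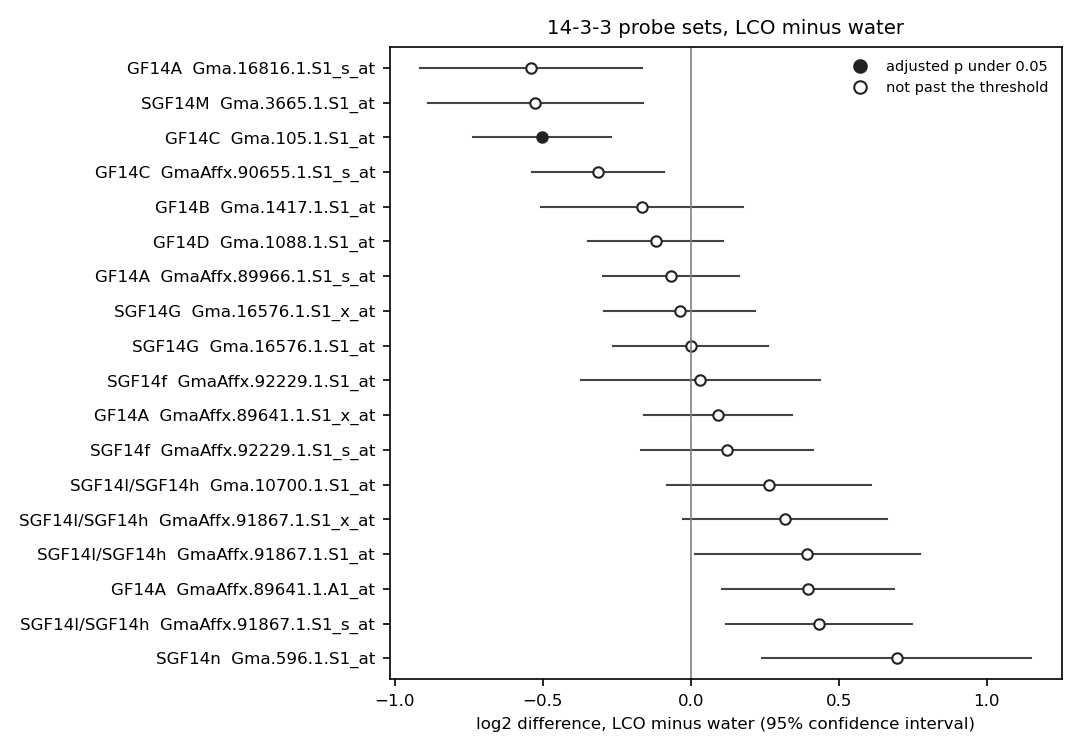
Log2 difference, LCO minus water, of the 18 tested 14-3-3 probe sets, with 95% confidence intervals from limma and the lowest estimate at the top; filled points have an adjusted p under 0.05. The 1 filled point is GF14C at -0.50, and the intervals of 10 probe sets include 0.

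The remaining copies, GF14B, GF14D, SGF14G and SGF14f, had overlapping groups and intervals that include 0. GF14B read 11.71, 11.49 and 11.37 with LCO, against 11.77, 11.82 and 11.48 in water, with a 95% interval of -0.51 to 0.18 for the log2 difference. GF14D read 11.31, 11.49 and 11.34 with LCO, against 11.54, 11.45 and 11.49 in water, with an interval of -0.35 to 0.11. The GF14C difference of -0.50 lies inside the interval of GF14B and outside that of GF14D.

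SGF14G was closest to no difference: its probe set Gma.16576.1.S1_at averaged 10.39 ± 0.15 with LCO and 10.39 ± 0.03 in water (SD, n = 3 each), with an interval of -0.26 to 0.26 for the log2 difference. Its second probe set had an interval of -0.29 to 0.22. For SGF14f the intervals were -0.37 to 0.43 and -0.17 to 0.41. In both SGF14f probe sets water 3 was the highest water array, at 8.19 and 8.65.

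Among the arrays of a group, water 3 was the highest of the water arrays in 12 of the 18 tested 14-3-3 probe sets, and in 43% of all tested probe sets. It was the lowest of them in 1 of the 18, and in 40.1% of all. LCO 3 was the highest of the LCO arrays in 11 of the 18, and in 37.7% of all. It was the lowest in 3 of the 18, and in 33% of all. These shares describe probe sets that overlap in gene and were not tested.

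Differences within each array are given here for pairs of members with estimates of opposite sign. GF14C minus the SGF14I and SGF14h probe set GmaAffx.91867.1.S1_s_at was -0.56, -0.65 and -0.66 with LCO, against 0.54, 0.29 and 0.11 in water. SGF14M minus SGF14n was 0.60, 0.28 and 0.52 with LCO, against 1.85, 1.62 and 1.59 in water. On every LCO array these differences lay below those on every water array. That follows from the groups of each probe set not overlapping, in opposite directions within a pair. Their mean with LCO minus their mean in water was -0.94 for the first pair and -1.22 for the second. The pairs were chosen for their opposite estimates, so this is a description with no test.

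**Figure D3:**
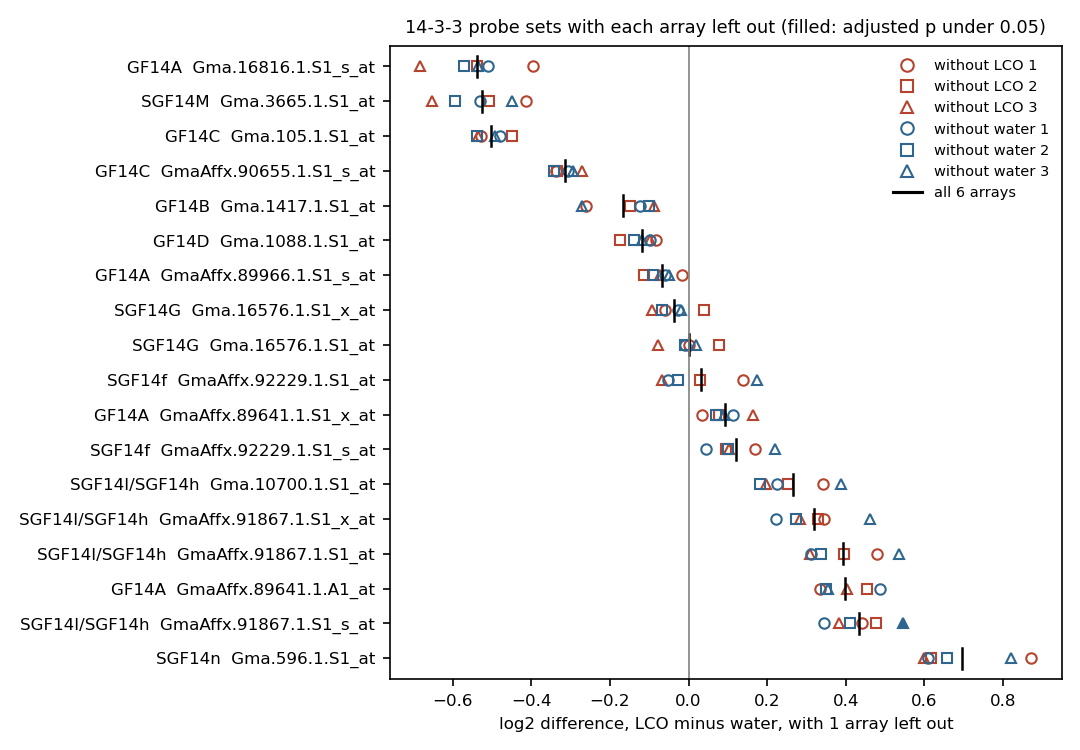
Log2 difference, LCO minus water, of the 18 tested 14-3-3 probe sets when 1 array is left out (symbols, red for an LCO array and blue for a water array) and with all 6 arrays (black bars); filled symbols have an adjusted p under 0.05. The estimates of GF14C stay between -0.54 and -0.45, and the 1 filled symbol is the SGF14I and SGF14h probe set without water 3, at 0.55.

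With each array left out in turn, 15 of the 18 probe sets kept the sign of their estimate in all 6 fits. The exceptions were 1 SGF14f probe set and both of SGF14G, all with estimates near 0. SGF14n ran from 0.60 to 0.87, SGF14M from -0.65 to -0.41, and the GF14A probe set Gma.16816.1.S1_s_at from -0.68 to -0.39. The signs of GF14C, SGF14M, SGF14n and the 4 SGF14I and SGF14h probe sets thus held in each of these 6 fits, while the call of GF14C held in none.

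With water 1 and 2 averaged, none of the 18 passed. The log2 differences were then -0.32 for the second GF14C probe set (limma adjusted p = 0.283), -0.56 for SGF14M (0.254) and -0.54 for Gma.16816.1.S1_s_at of GF14A (0.277). SGF14n was at 0.63 (limma adjusted p = 0.277), the A1 probe set GmaAffx.89641.1.A1_at of GF14A at 0.42 (0.248), and GmaAffx.91867.1.S1_s_at of SGF14I and SGF14h at 0.38 (0.313). Each kept its sign at a size close to that from all 6 arrays.

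The probe sets most like the GF14C probe set Gma.105.1.S1_at over the 6 arrays were sought among 1300 tested probe sets with 1 gene named by a symbol. PRP3 had a Pearson r of 0.995, MET2 of 0.988 and PAP25 of 0.981, each over 6 arrays with the same 2 groups. The sizes differed widely: the log2 difference was -0.17 (SE 0.08) for PRP3, -0.63 (SE 0.13) for MET2 and -3.75 (SE 0.29) for PAP25, a purple acid phosphatase. With so few arrays these values describe a shared split between LCO and water.

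Proteins that 14-3-3 proteins are known to bind in plants, and calcium-dependent protein kinases, which can phosphorylate such sites, were read from lists by gene symbol. With CHS8, a chalcone synthase under MYB176 and itself no binding partner, they held 33 probe sets, of which 26 were tested. Of these 1, of CHS8, fell, 0 rose and 25 did not pass in limma, near the backgrounds of 1.88% and 1.67%. At an unadjusted p under 0.05 there were 9 lower and 1 higher, against backgrounds of 13.3% and 12.5%. At 18 lower and 8 higher estimates, the median log2 difference was -0.24, against -0.01 over all tested. Several probe sets share a gene, and 4 of the lower ones are of CHS8. Without it, 0 of 22 probe sets passed in either direction, 5 were lower and 1 higher at an unadjusted p under 0.05, and the median was -0.18.

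The probe set that fell was Gma.4300.1.S1_at of CHS8. It read 4.05, 4.54 and 3.25 with LCO, against 5.66, 5.55 and 5.76 in water, a log2 difference of -1.71 (SE 0.31, limma adjusted p = 0.0404). LCO 3 lay under the filter of 3.31, and this was the dimmest of the 4 tested CHS8 probe sets. The other 3 tested probe sets of CHS8 did not pass, with log2 differences of -0.98 to -1.67. The call ended without water 1, water 2, water 3 or LCO 1, with an adjusted p of 0.0523 to 0.160 in those fits, and with water 1 and 2 averaged. Without LCO 1 the probe set of these lists that passed was another, Gma.4375.1.S1_x_at of LOC547953.

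MYB176 itself, named after its values were seen, read 10.99, 10.42 and 10.56 with LCO, against 11.24, 11.17 and 10.70 in water. The groups overlapped, with a log2 difference of -0.38 (SE 0.21, limma adjusted p = 0.294). Of the 5 transcription factor probe sets the one with the smallest p was of BZIP1, listed as AREB1, a factor of the abscisic acid response, at -0.40 (SE 0.17, limma adjusted p = 0.193).

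Nitrate reductase, the classic 14-3-3 client of leaves, was represented by INR1 and INR2. INR1 read 11.33, 10.54 and 11.16 with LCO, against 11.00, 10.96 and 10.29 in water, a log2 difference of 0.26 (SE 0.27, limma adjusted p = 0.580). The groups overlapped, as they did for INR2 at -0.03 (SE 0.25).

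Glutamine synthetase, which assimilates ammonium, had 11 tested probe sets, 7 lower and 4 higher in the estimate, and none passed. The smallest p was that of Gma.4375.1.S1_x_at of LOC547953, listed as GS1beta2. It read 3.87, 3.57 and 3.39 with LCO, against 4.14, 4.36 and 4.30 in water, a log2 difference of -0.66 (SE 0.15, limma adjusted p = 0.0640). These values lay near the filter of 3.31. Other probe sets of this gene differed: Gma.4375.1.S1_at and Gma.4375.1.A1_at were both at 0.01 (limma adjusted p = 0.986 and 0.973). Gma.4375.1.S1_s_at, shared with LOC548082, was at -0.31 (limma adjusted p = 0.177). Of LOC548082 alone, Gma.3518.1.S1_at was at -0.33 (limma adjusted p = 0.123) and GmaAffx.92117.1.S1_s_at at -0.24 (0.399), with groups that did not overlap. GmaAffx.89678.1.S1_s_at was at -0.19 (limma adjusted p = 0.483) and the dim GmaAffx.89678.1.A1_s_at at -0.27 (0.414), with overlapping groups.

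ACC synthase, which makes the precursor of ethylene, had 2 tested probe sets, both of ACS1. In Gma.1332.1.S1_s_at the values were 3.94, 4.51 and 5.07 with LCO, against 3.63, 3.38 and 2.97 in water, a log2 difference of 1.18 (SE 0.31, limma adjusted p = 0.0868). The groups did not overlap and the probe set did not pass. Its water mean of 3.33 lay close to the filter of 3.31, and water 3 was under it. In the other tested probe set, Gma.1332.1.S1_x_at, the groups overlapped, with a log2 difference of 0.85 (SE 0.41, limma adjusted p = 0.247). A further ACS1 probe set, Gma.1332.1.S1_at, had a mean under the filter and was not tested, though LCO 3 read 4.02.

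The calcium-dependent protein kinase CDPK read 6.45, 6.66 and 6.83 with LCO, against 7.05, 6.89 and 7.16 in water. All LCO arrays were lower, with a log2 difference of -0.39 (SE 0.13, limma adjusted p = 0.142). In the other tested kinase, CDPK-GAMMA, the groups overlapped, with a log2 difference of -0.24 (SE 0.16, limma adjusted p = 0.398). The probe set of CDPK-BETA was under the filter. The 1 florigen probe set, of FT1A, had a mean under the filter and was not tested. Its values were 3.53, 3.71 and 3.12 with LCO, against 2.65, 2.63 and 2.73 in water. No probe set matched the proton pump or sucrose phosphate synthase names.

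**Figure D4:**
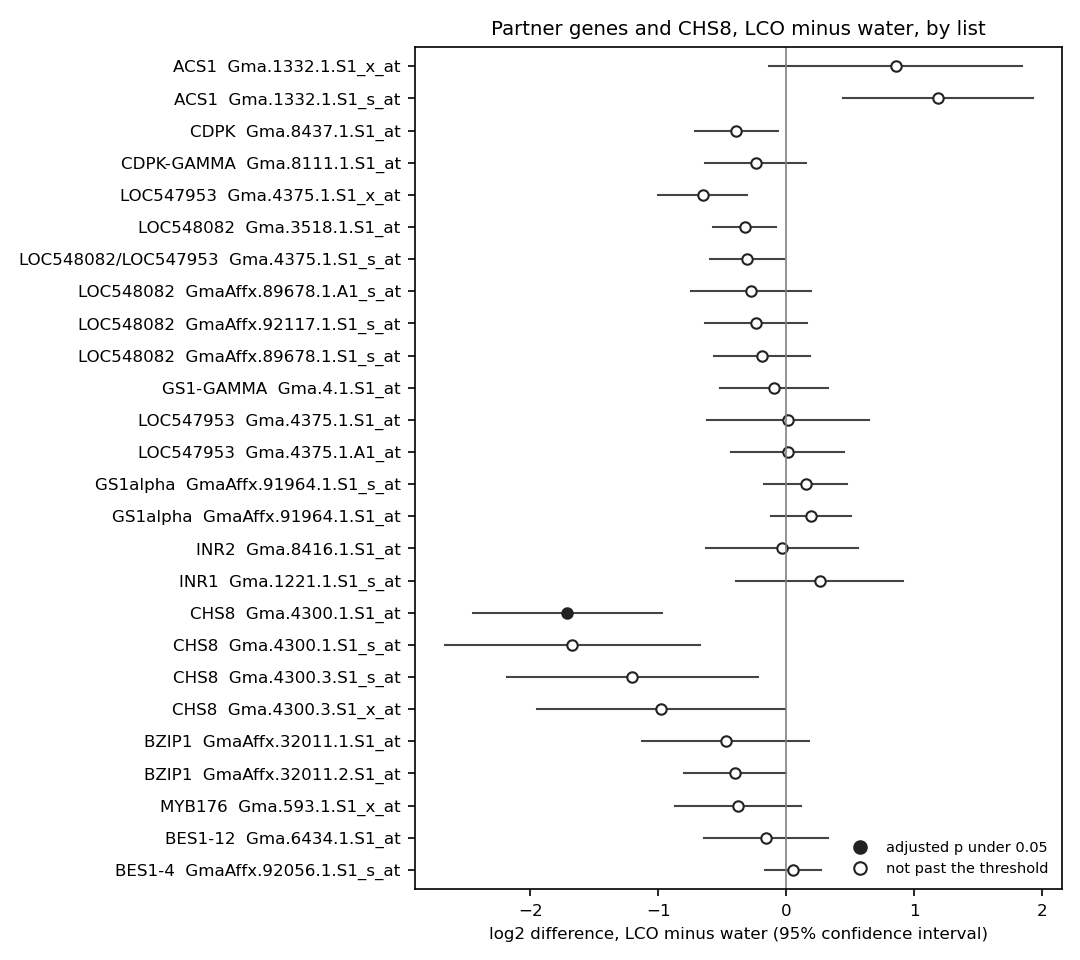
Log2 difference, LCO minus water, with 95% confidence intervals, of the 26 tested probe sets of 14-3-3 partner genes and CHS8, grouped by list and then ordered by estimate; filled points have an adjusted p under 0.05. The 1 filled point is CHS8 at -1.71, and ACS1 lies to the right at 0.85 and 1.18.

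Other features of the arrays moved with the groups. Phloem markers, the sieve element occlusion genes, had a summed level of 8.41 to 9.04 on LCO arrays and 7.88 to 8.00 on water arrays (log2 of the sum over 11 probe sets, 4 of them under the filter). Of the 7 tested, 0 passed limma's test after adjustment and 5 were higher at an unadjusted p under 0.05, against a background of 12.5%. Their median log2 difference was 0.74, against -0.01 over all tested. The P450 control gene, whose 3′ minus 5′ log2 difference rises where RNA is less intact, gave 2.13, 1.74 and 2.92 with LCO, against 1.01, 0.97 and 0.95 in water (two-sided exact permutation p = 0.1, the smallest that 3 against 3 allows). The same difference overlapped between the groups for the GlutTrans and actin controls. Its mean was 0.60 with LCO and 0.39 in water for GlutTrans. For actin it was 1.31 with LCO and 1.48 in water, the opposite direction to P450. The part of the phloem level or of RNA intactness in the GF14C difference, or in the other 14-3-3 estimates, was not tested. In whole leaves, fewer cells of a type and less RNA per cell cannot be told apart.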

How the data were processed

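Leaf RNA was hybridised as biotin-labelled cRNA to 1 Affymetrix soybean array per sample, 3 of LCO and 3 of water. The authors deposited 1 value per probe set and array, made with RMA per the submitters' processing notes; its version is not given in the sources used here. The scale of the deposited values was taken as log2, since they run from 1.45 to 14.6. Medians per array were 3.42 to 3.47.

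The filter kept soybean probe sets with a mean above the percentile 90 of 23394 probe sets of other organisms, a log2 value of 3.31. It left 29286, with 18 of the 19 members. LCO was compared with water by lmFit and eBayes of limma 3.58.1 (R 4.3.3) with no covariate. P-values were adjusted by Benjamini-Hochberg over all tested probe sets, with a threshold of 0.05. The fit was checked on simulated data in which 200 of 29286 probe sets were changed. At a log2 change of 0.5, 0% of these were recovered, and at a change of 1, 65%. The real data held more calls, 1040, which makes the adjustment less strict, so these shares do not carry over to them. A probe set that did not pass is still not shown to be alike in both groups. Symbols were updated by Entrez identifier. All members were named, each partner probe set that passed, the smallest p in a list where none did, and the 3 probe sets most correlated with a called member. The members and lists were chosen with earlier results of these data known. No source says that replicates came from separate plants, so the p-values reflect a spread that may be technical, and 3 arrays per group limit the precision. Alternatives were other filters, scalings and thresholds, a prior with trend and robust settings, weighted arrays, the replicate number as a block, water 1 and 2 averaged, 1 mean per gene, and each array left out. Figures used matplotlib 3.10.9.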

Additional observations from a re-analysis of the deposited data

How the results depend on the processing

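The count over all tested probe sets was 1040. It was 9544 with array weights, 3010 with the replicate block, 203 with water 1 and 2 averaged, and 193 to 2207 with an array left out. The 14-3-3 probe sets past the threshold as lower, 1 in all, became 4 with array weights and 0 with 1 mean per gene, with water 1 and 2 averaged, at an adjusted p under 0.01, and with each array left out (0 to 0). Those past it as higher, 0 in all, became 5 with array weights, 1 with the replicate block (SGF14n, adjusted p = 0.0348), 1 at an adjusted p under 0.1, and 0 to 1 with an array left out. Probe sets of partner genes and CHS8 past it as lower, 1 in all and 0 without CHS8 (chosen after seeing the data), became 10 with array weights, 3 with the replicate block, 0 with 1 mean per gene, 0 with water 1 and 2 averaged, and 0 to 1 with an array left out; as higher, 0 in all, 1 with array weights. The other filters, normalizations and the prior with trend and robust settings left each of these counts within 1.5 times its value. The cause of the changes was not tested.

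Whether the replicate numbers pair the arrays cannot be told from 3 arrays per group. The deviations from the group means of same-numbered arrays correlated at 0.45, -0.04 and 0.53. Of the 3 LCO arrays, 2 correlated best with the water array of their own number. For LCO 1 the margin was narrow, at 0.4521 with water 1 and 0.4475 with water 2. Of 273 alternatives over the 18 tested 14-3-3 probe sets, 243 kept sign and side of the threshold, 10 gained a call, 7 lost one (all of GF14C) and 13 changed sign, in 4 probe sets with estimates near 0. The log2 differences that changed sign were, for SGF14G Gma.16576.1.S1_at, -0.075 with array weights, -0.015 with leaf marker centring, -0.025 with median centring, -0.0090 with water 1 and 2 averaged, and a range of -0.077 to 0.077 with an array left out. Its other probe set ran from -0.094 to 0.039 with an array left out. SGF14f GmaAffx.92229.1.S1_at was at -0.039 with water 1 and 2 averaged and at -0.068 to 0.175 with an array left out. GF14A GmaAffx.89966.1.S1_s_at was at 0.0032 with array weights. With the stricter filter GmaAffx.89641.1.A1_at had no value.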
